A study of Mus musculus with 8 samples.

Results

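The kinesin family of the mouse testis is described here in whole-testis RNA of mice labelled Tmem232-/- and Tmem232+/+. Its members were the rows of the deposited gene table whose symbol begins with Kif or Kifc and a number, without the KIF3 subunits Kif3a, Kif3b and Kif3c. The rule used no measured value, and it found 40 members among 19906 genes, of which 38 had enough counts to be tested among 15787 tested genes. One of them, Kif1bp, matches by name only, since it encodes a protein that binds kinesins and has no motor. The other 39 members are kinesins and are called motors here, also Kif26a, which has no ATPase activity.

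Total RNA was sequenced from the testes of 4 Tmem232-/- and 4 Tmem232+/+ male C57BL/6 mice at 2 months of age, with 1 library for each mouse. The Tmem232-/- mice carried a deletion made by CRISPR-Cas9 in every cell, and the Tmem232+/+ mice carried no engineered allele. The total was between 15428421 and 16350871 estimated counts per library, so library depth differed little. The number of mice limits the precision of every comparison.

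Tmem232 itself, the targeted gene, did not separate the labels in the direction of its deletion. Its level in counts per 1000000 (CPM, scaled by the TMM method) was 148, 132, 123 and 122 in the libraries labelled Tmem232-/-. In those labelled Tmem232+/+ it was 111, 106, 108 and 110. The values did not overlap, and the log2 fold change was 0.27 (SE 0.07, edgeR adjusted p = 0.0335). The call was lost when replicate 1 or 2 of the first group or replicate 2 or 4 of the second was left out (edgeR adjusted p = 0.0858, 0.0860, 0.0888 and 0.0892). Counts summed over a gene cannot show which exons they came from, so the labels were not checked by this gene, and each direction below is that of the libraries as labelled.

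Kinesins are motor proteins that hydrolyse ATP to walk along microtubules or, in the kinesin-13 group, to take microtubule ends apart. In dividing cells they build the spindle, move chromosomes and cut the cytoplasm between daughter cells. In cilia and sperm flagella they carry building blocks, set length or work within the axoneme, and in most cells they carry organelles and vesicles. A testis needs all of these, because it holds mitotic spermatogonia, meiotic spermatocytes and spermatids that reshape the head and grow a flagellum.

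Sequences around the starts of a few members are given first, those of Kif17 and Kif2b because they were the members with the largest genotype differences, and those of spindle motors because most of their windows hold the same letters. They are RefSeq promoter windows on GRCm38.p6, which reach from 250 bases before to 50 bases after an annotated start of a gene and were found for 31 of the 40 members. Both strands were searched for the cAMP response element TGACGTCA, the site of CREM in spermatids, and for its part TGACG, which occurs in each full site on both strands. The same was done for GTTGCC, which is part of the X-box of RFX factors in ciliary genes, and for TTTGAA, the cell cycle genes homology region (CHR) of genes used in cell division. Positions are counted from the annotated start, with -1 as the last base before it. The 250 bases before the starts of Kif17 (chr4:138262001-138262250, plus strand) and Kif2b (chr11:91577556-91577805, minus strand) are printed 5′ to 3′, with the letters of TGACG and GTTGCC on either strand in capitals.
Kif17: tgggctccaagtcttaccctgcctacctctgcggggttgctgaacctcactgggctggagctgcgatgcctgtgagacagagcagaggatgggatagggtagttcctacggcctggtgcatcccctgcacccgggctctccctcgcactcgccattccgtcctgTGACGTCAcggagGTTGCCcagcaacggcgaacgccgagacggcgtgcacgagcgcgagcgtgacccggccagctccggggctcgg
Kif2b: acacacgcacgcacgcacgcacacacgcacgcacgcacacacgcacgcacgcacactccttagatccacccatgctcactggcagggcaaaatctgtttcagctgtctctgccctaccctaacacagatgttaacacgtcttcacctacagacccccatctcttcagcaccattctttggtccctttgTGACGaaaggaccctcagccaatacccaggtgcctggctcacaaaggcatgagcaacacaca

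The Kif17 window held a full TGACGTCA at -86 and GTTGCC at -73, and the Kif2b window held TGACG without the rest of the full site at -62. Over all genes with a window, 2.03% held the full site, 23.0% TGACG and 14.1% GTTGCC. Among the 31 members with a window, 3 held the full site, 15 TGACG and 8 GTTGCC. Both other members with the full site are printed as 30 bases with that site in capitals, Kif5c from -37 to -8 (chr2:49619249-49619278, plus strand) and Kif18a from 20 to 49 after the start (chr2:109280757-109280786, plus strand). Neither of them passed the test described below.
Kif5c: gatctctgcagTGACGTCAccgtgccgagg
Kif18a: gtctgacgtgcTGACGTCAtccgaacggca

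The CHR letters were more frequent among the spindle motors, as a count and without a test. They were in 10 of the 11 spindle and chromosome motors with a window, all but Kif18a, and in 4 of the other 20 members, against 20.2% of all genes. Not every matching window lies at the outermost start of its gene. Those of Kif14, Kif2c, Kif27, Kif26b and Kif1a lie wholly inside the gene as deposited. For Kif14 the window is chr1:136467598-136467897, and the deposited gene begins at 136466290. Windows of 5 members are printed as 30 bases with TTTGAA or its reverse complement TTCAAA in capitals. Those of Kif11 (chr19:37376351-37376380, plus strand) and Kif15 (chr9:122951050-122951079, plus strand) reach from -31 to -2. Those of Kif23 (chr9:61946780-61946809, minus strand) and Kifc1 (chr17:33890615-33890644, minus strand) span the start, from -10 to 20 and from -11 to 19. That of Kifc5b (chr17:26917108-26917137, plus strand) lies after the start, from 18 to 47.
Kif11: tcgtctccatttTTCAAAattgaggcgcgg
Kif15: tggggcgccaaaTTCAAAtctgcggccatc
Kif23: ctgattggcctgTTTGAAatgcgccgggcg
Kifc1: cggaggttgaaaTTCAAAagtggcgggtgt
Kifc5b: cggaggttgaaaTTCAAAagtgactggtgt
A match of letters is a description of the window and was not tested for binding. The 4 members with a pair of windows each had more chance to hold a match.

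The members spanned a wide range of levels in the testis. The deposited FPKM values, which are counts per kilobase of transcript, scaled to the library's total, allow levels to be compared between genes. Mean FPKM over the 8 libraries was at least 100 for 3 members, at least 10 for 18 and at least 1 for 36. The 4 members under 1 FPKM were Kif26a, Kif26b, Kif28 and Kif12. The last of these had no count in any library labelled Tmem232-/- and at most 1 count in those labelled Tmem232+/+, and Kif28 had at most 2 counts in a library, so neither could be tested.

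**Figure D1:**
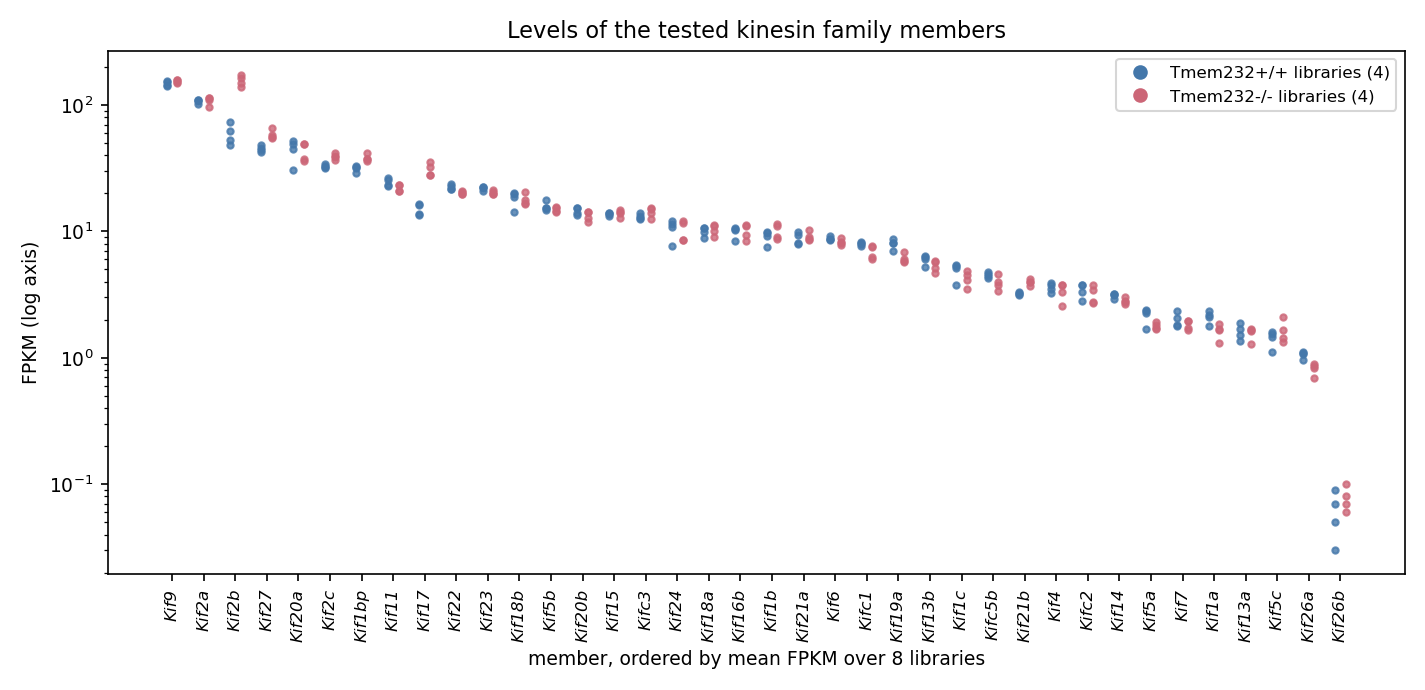
FPKM (log axis) of the 38 tested members in each library, ordered by the mean over 8 libraries, with 4 points for each labelled genotype. Kif9, Kif2a and Kif2b lie at the top, and the points of Kif2b and Kif17 form separate clusters by genotype.

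In the libraries labelled Tmem232+/+, Kif9 stood first at a mean of 148.0 FPKM (SD 6.77, n = 4), followed by Kif2a at 107 (SD 3.56) and Kif2b at 59.2 (SD 11.1). The ranges of those first 3 did not overlap, while Kif2b overlapped with Kif27, the next in order. In the libraries labelled Tmem232-/-, Kif2b came first at a mean of 156 FPKM (SD 15.2), and its range overlapped with that of Kif9 at 154 (SD 3.60). Kif2a came next there at 108 (SD 8.49), below both ranges. The order of Kif2a and Kif2b was thus opposite under the labels.

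The genotype comparison asked which members differ in RNA between the labels. At an adjusted p under 0.05 in edgeR's quasi-likelihood test, 6 of 38 tested members (15.8%) were higher in the libraries labelled Tmem232-/-, against 10.3% of all tested genes. They were Kif2b, Kif17, Kif27, Kif2c, Kif21b and Kif1bp. Kif19a was the 1 member that was lower (2.6%), against 1.46% of all tested genes. At a fold change of 2 or more with an unadjusted p under 0.05, Kif2b and Kif17 were higher (5.3% of members, against 5.48% of all tested genes) and 0 were lower (against 0.114%). The members' shares lay near those of all genes under both thresholds.

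The values did not overlap between the labels for 6 higher members (15.8%, against 11.8% of all tested genes) and for 2 lower ones, Kif19a and Kif26a (5.3%, against 6.88%). The median log2 fold change was -0.01 over the 38 members and -0.05 over all tested genes, and the members' median lay between -0.05 and 0.06 under the other settings tried.

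**Figure D2:**
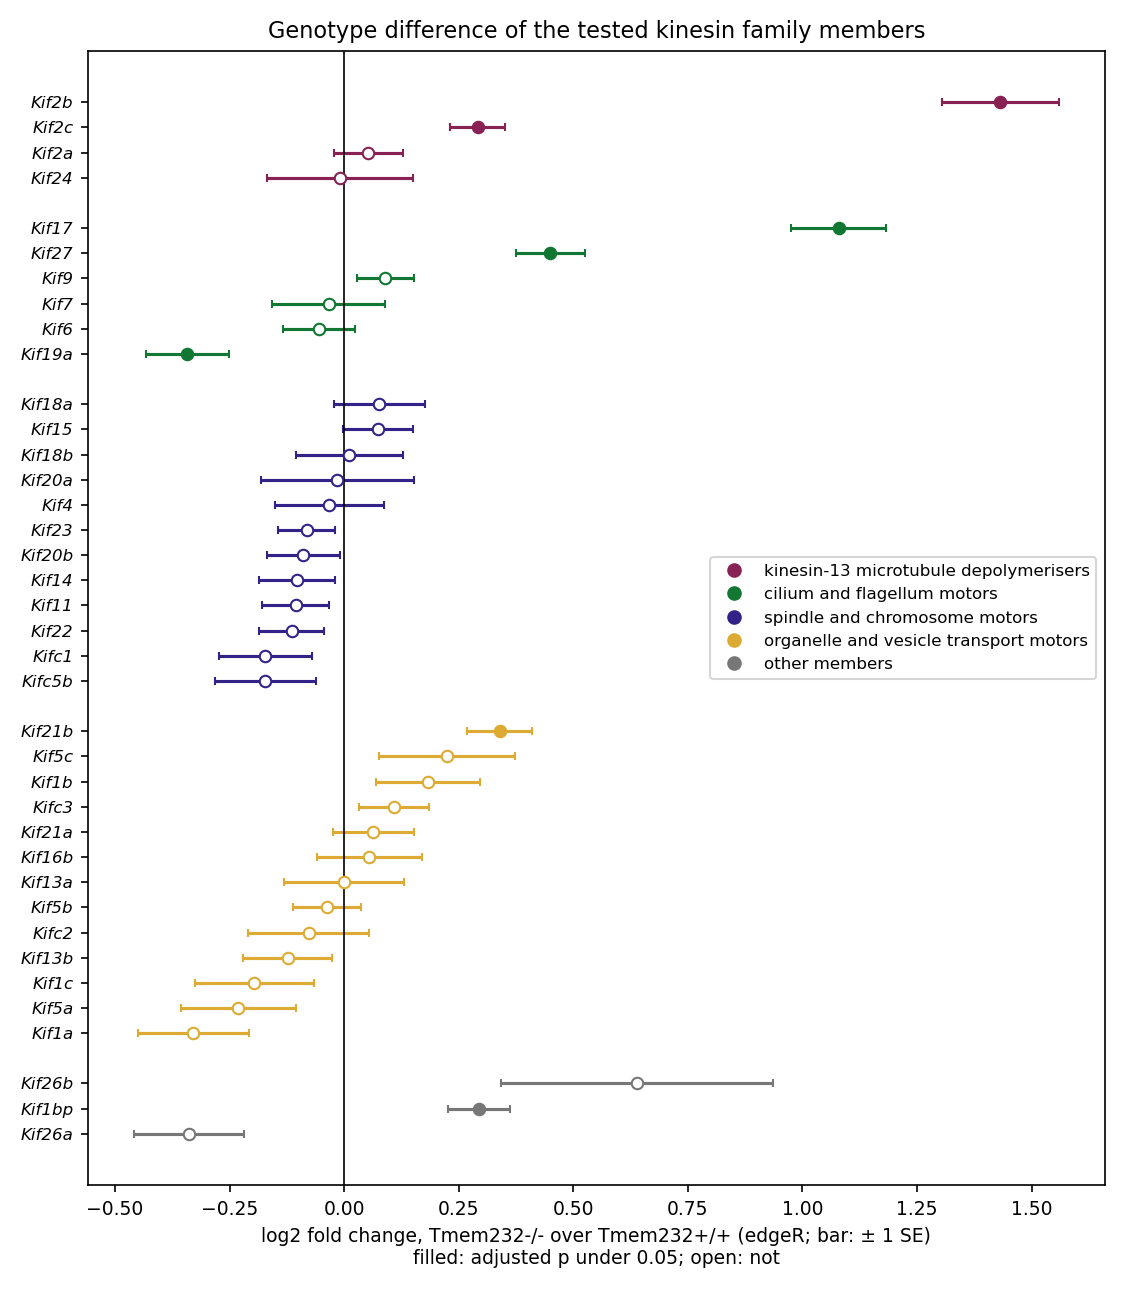
Log2 fold change of each tested member, libraries labelled Tmem232-/- over those labelled Tmem232+/+, from edgeR, with bars of 1 SE and colours for role groups. Filled points passed an adjusted p of 0.05, and Kif2b at 1.43 and Kif17 at 1.08 lie apart from the other members.

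The kinesin-13 group, which shortens microtubules, held the member with the largest difference. Kif2b encodes a kinesin-13 that works in chromosome attachment in dividing cells, and its gene (chr11:91575286-91577555 in the deposited table, GRCm38) has 1 exon in the GENCODE vM21 annotation. Its level was 376, 345, 297 and 306 CPM in the libraries labelled Tmem232-/-. It was 114, 98.1, 151 and 128 CPM in those labelled Tmem232+/+. The lowest of the first group was thus well above the highest of the second. The log2 fold change was 1.43 (SE 0.13, edgeR adjusted p = 3.3e-05), or 2.70-fold, and it lay between 1.34 and 1.58 when each library was left out in turn.

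Kif2c, also known as MCAK, corrects wrong attachments of chromosomes to the spindle. It was at 101, 108, 105 and 109 CPM in the libraries labelled Tmem232-/- and at 88.9, 84.1, 82.9 and 89.1 CPM in those labelled Tmem232+/+. The groups were separate but close, with a log2 fold change of 0.29 (SE 0.06, edgeR adjusted p = 0.0066).

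Kif2a, which trims microtubules at spindle poles and at growing neurites, did not pass the test. It had 391, 363, 381 and 319 CPM in the libraries labelled Tmem232-/- and 367, 350, 337 and 348 CPM in the others. These values overlapped, and the log2 fold change was 0.05 (SE 0.07, edgeR adjusted p = 0.694). Its counts were partly fractional in all 8 libraries, and another gene, Dimt1, overlaps it on the opposite strand in the annotation. For 8 of the 35 members compared, Kif2a, Kif24 and Kif1bp among them, the deposited table gives the strand opposite to the annotated one. Kif24, which acts at the mother centriole to hold back cilia, had a log2 fold change of -0.01 (SE 0.16, edgeR adjusted p = 0.978).

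The order of Kif2b and Kif2a was examined within each library, a ratio chosen after the values were seen and free of library scaling. In FPKM, Kif2b over Kif2a was 1.53, 1.48, 1.22 and 1.54 in the libraries labelled Tmem232-/-. In those labelled Tmem232+/+ the ratio was 0.484, 0.441, 0.721 and 0.582. Each library labelled Tmem232-/- therefore held more Kif2b than Kif2a per length and each of the others held less, which restates the difference in Kif2b and is given with no test.

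Among the motors of cilia and flagella, 2 rose, 1 fell and 3 did not pass the test, where 10.3% of all tested genes were higher and 1.46% lower. Kif17 is a kinesin-2 motor that acts without the KIF3 subunits and in male germ cells moves the CREM coactivator FHL5, also called ACT. Its gene lies at chr4:138262251-138301973 and was measured at 123, 134, 106 and 101 CPM in the libraries labelled Tmem232-/-. In those labelled Tmem232+/+ it was at 51.7, 49.0, 59.0 and 60.1 CPM. The groups were far apart, with a log2 fold change of 1.08 (SE 0.10, edgeR adjusted p = 4.8e-05), or 2.11-fold. One annotated Kif17 transcript starts within the neighbouring gene Sh2d5, which was at 1.62 to 3.51 CPM and had a log2 fold change of -0.06 (SE 0.22, edgeR adjusted p = 0.885).

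Kif27, a relative of the Hedgehog regulator Kif7, takes part in building the central pair of motile cilia. Its values were 269, 250, 240 and 215 CPM in the libraries labelled Tmem232-/- and 176, 177, 177 and 183 CPM in the others. The second group was tight and lay below the first, with a log2 fold change of 0.45 (SE 0.08, edgeR adjusted p = 0.0016). An antisense gene, Gm26555, overlaps Kif27, and the sources used here do not say whether reads were counted by strand.

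Kif19a, which shortens microtubules at ciliary tips and so limits cilium length, had the opposite direction. It was at 19.97, 19.4, 20.2 and 22.3 CPM in the libraries labelled Tmem232-/- and at 26.98, 22.5, 28.1 and 26.3 CPM in the others. The highest of the first group was just below the lowest of the second, and the log2 fold change was -0.34 (SE 0.09, edgeR adjusted p = 0.0298). The call was lost when Tmem232-/- replicate 1, 2 or 3 was left out (edgeR adjusted p = 0.0804, 0.0965 and 0.0733). It was also lost without Tmem232+/+ replicate 1, 3 or 4 (edgeR adjusted p = 0.146, 0.0839 and 0.0831).

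Kif9, a motor of the flagellar central apparatus that sperm need for normal swimming, was the most abundant member on average. It had 446, 461, 456 and 434 CPM in the libraries labelled Tmem232-/- and 423, 395, 436 and 434 CPM in the others. The groups overlapped, with a log2 fold change of 0.09 (SE 0.06, edgeR adjusted p = 0.397). Kif6, a motor of ependymal cilia, was at 30.2, 27.7, 26.5 and 27.1 CPM in the libraries labelled Tmem232-/- and 31.7, 28.3, 27.5 and 28.4 CPM in the others. The groups overlapped, with a log2 fold change of -0.05 (SE 0.08, edgeR adjusted p = 0.699). Kif7 was at -0.03 (SE 0.12, edgeR adjusted p = 0.889).

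**Figure D3:**
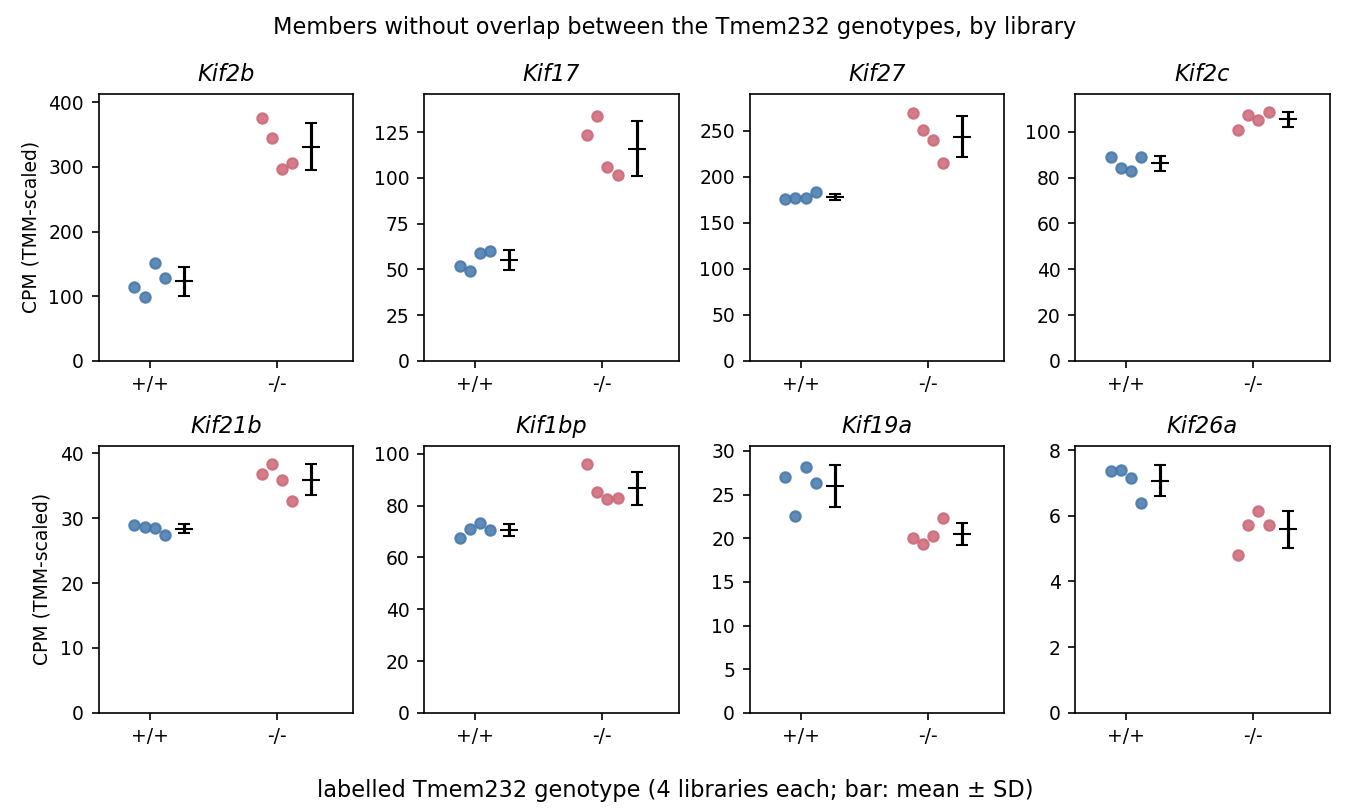
CPM of the 8 members whose values did not overlap between the labels, 1 point per library, with mean and SD of each group of 4. Kif2b and Kif17 are separated by a wide gap, while Kif19a and Kif26a lie lower in the libraries labelled Tmem232-/- by a narrow one.

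The spindle and chromosome motors showed no member past the threshold. Of 12, 0 were called in either direction by edgeR, DESeq2 or limma-voom, and 0 had an unadjusted p under 0.05 in edgeR, against 25.1% of all tested genes. Their median log2 fold change was -0.09, with a range from -0.17 to 0.08, and standard errors reached 0.17. The median stayed below 0 under all 17 other settings, between -0.12 and -0.03, beside -0.05 over all genes.

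Kif11, which pushes spindle poles apart, had a log2 fold change of -0.11 (SE 0.07, edgeR adjusted p = 0.397). Kifc1, which walks to the minus end and acts at spindle poles and on the spermatid nucleus, was at 12.98, 16.3, 13.7 and 16.4 CPM in the libraries labelled Tmem232-/-. In those labelled Tmem232+/+ it was at 17.8, 16.5, 15.6 and 17.1 CPM. The groups overlapped, and the log2 fold change was -0.17 (SE 0.10, edgeR adjusted p = 0.325).

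Kifc5b is a close copy of Kifc1 on the same chromosome, and both had fractional counts in 7 of 8 libraries, so their counts may be shared. Kifc5b was at 9.98, 9.48, 8.35 and 11.1 CPM in the libraries labelled Tmem232-/- and 11.5, 10.2, 10.6 and 11.5 CPM in the others. The groups overlapped, with a log2 fold change of -0.17 (SE 0.11, edgeR adjusted p = 0.363). Summed, the pair came to 24.6 CPM (SD 2.50, n = 4) against 27.7 CPM (SD 1.48, n = 4), and the groups overlapped (exact permutation test, two-sided p = 0.114).

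Kif20a, which works in the midzone and cleavage furrow at cytokinesis, was the most abundant motor of this group. It had 124, 167, 168 and 124 CPM in the libraries labelled Tmem232-/- and 178, 162, 101 and 148 CPM in the others. The range under the first label lay within that under the second, and the log2 fold change was -0.02 (SE 0.17, edgeR adjusted p = 0.966), which other settings placed on either side of 0. Its coefficient of variation was 17.5% under the first label and 22.6% under the second. The mean of its SDs on the log2 scale in both genotypes was the largest of the tested members, with Kif24 next. Its counts were fractional in all 8 libraries, and Cdc23 overlaps it on the opposite strand.

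Within each genotype, Kif20a was lowest in replicates 1 and 4 labelled Tmem232-/- and in replicate 3 labelled Tmem232+/+. The same libraries held the lowest values within their genotype for 10 tested members, among them Kif24, Kif18a, Kif18b, Kif1b and Kif1c, and the highest within it for 2, Kif5a and Kifc2. This pattern was chosen after the values were seen. Over all tested genes, 16.62% were lowest and 19.17% were highest in those 3 libraries by the same measure within genotype. The same libraries had the highest sums of elongating spermatid markers within their genotype, with 2314 and 2172 CPM against 1388 and 1834 CPM in the others labelled Tmem232-/-. Tmem232+/+ replicate 3 had 701 CPM, against 346 to 503 CPM in the rest. The part of these markers in the members' spread was not tested.

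**Figure D4:**
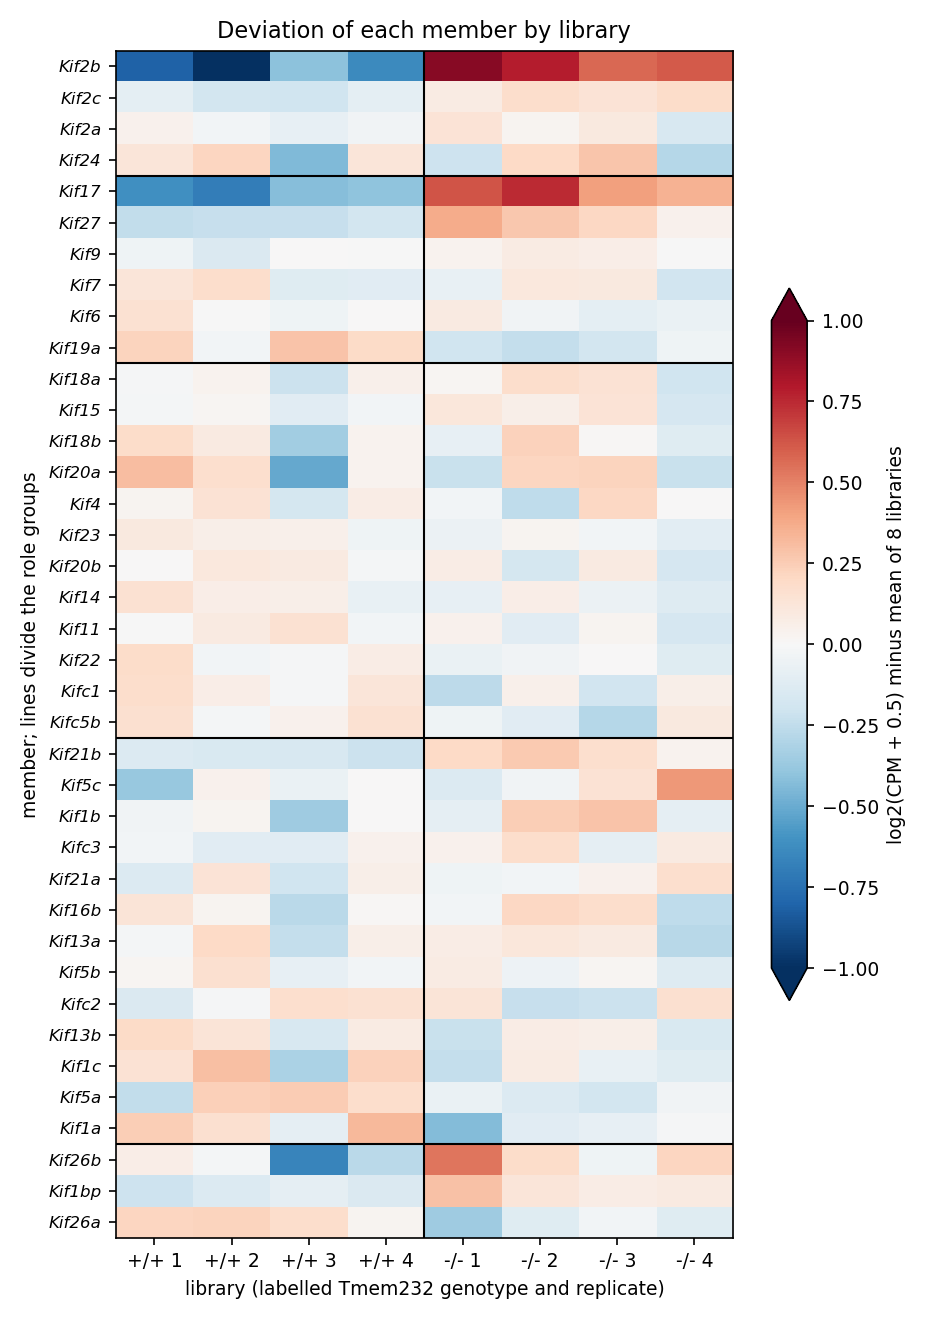
Heat map of log2(CPM + 0.5) of each tested member minus its mean over the 8 libraries, by library, with lines between role groups and genotypes. Kif2b and Kif17 change colour at the genotype line, while Kif20a and Kif24 are low in 2 libraries labelled Tmem232-/- and 1 labelled Tmem232+/+.

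Of 13 tested motors of organelles and vesicles, Kif21b was higher, beside 10.3% of all tested genes, and 12 did not pass the test. The median log2 fold change was 0.00, and the 12 lay between -0.33 and 0.22. Kif21b, which pauses microtubule growth and is best known from neurons and T cells, was at 36.7, 38.3, 35.9 and 32.7 CPM in the libraries labelled Tmem232-/-. It was at 29.0, 28.7, 28.5 and 27.4 CPM in the others, all below the first group. The log2 fold change was 0.34 (SE 0.07, edgeR adjusted p = 0.0087), and the call was lost on log2(FPKM + 0.1) (limma adjusted p = 0.0504).

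Kif5b, the widely used heavy chain of conventional kinesin, was at 95.0, 86.7, 91.1 and 81.8 CPM in the libraries labelled Tmem232-/- and 91.1, 100.1, 84.7 and 87.8 CPM in the others. The groups overlapped, with a log2 fold change of -0.04 (SE 0.07, edgeR adjusted p = 0.791), and the sign changed under some settings. Kif1a, a vesicle motor of axons, was at 10.9 to 14.6 CPM in the libraries labelled Tmem232-/- and 13.9 to 18.6 CPM in the others, and its log2 fold change of -0.33 (SE 0.12, edgeR adjusted p = 0.119) did not pass.

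The remaining members have other roles. Kif1bp, the protein that holds some kinesin motors off the microtubule, was at 95.9, 85.2, 82.4 and 83.1 CPM in the libraries labelled Tmem232-/-. It was at 67.7, 71.1, 73.3 and 70.6 CPM in the others, and the groups did not overlap. An antisense gene, 4933428P19Rik, overlaps Kif1bp in the annotation. The log2 fold change was 0.29 (SE 0.07, edgeR adjusted p = 0.014), and the call was lost without Tmem232+/+ replicate 4 (edgeR adjusted p = 0.0516).

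Kif26a, an atypical kinesin without ATPase activity that acts in GDNF signalling, was low. It was at 4.79, 5.71, 6.13 and 5.72 CPM in the libraries labelled Tmem232-/- and 7.35, 7.39, 7.16 and 6.39 CPM in the others. The groups did not overlap, but the log2 fold change of -0.34 (SE 0.12, edgeR adjusted p = 0.102) did not pass the test across genes. Kif26b had 7 to 25 counts per library and a log2 fold change of 0.64 (SE 0.30, edgeR adjusted p = 0.209), and did not pass the test.

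The summed RNA of the motors was higher in the libraries labelled Tmem232-/-. The FPKM of the 39 motors summed to 845, 862, 830 and 796 in the libraries labelled Tmem232-/- and to 703, 704, 702 and 721 in the others. The sums did not overlap (p = 0.029 by a two-sided exact permutation test, which can give no lower value with 4 against 4). Without Kif2b and Kif17, taken out because they had risen most among the members that passed, the sums were 639, 665, 663 and 620 against 636, 643, 612 and 642. These sums overlapped, and they are a description only, since the pair was chosen by its change. Kif2b made up 16.8% to 20.6% of motor FPKM in the libraries labelled Tmem232-/- and 6.84% to 10.5% in the others.

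Proteins that work with the kinesins were taken from lists of partners. Of 21 light chains, kinesin-2 subunits and cargo adaptors, 1 was higher (10.3% of all tested genes) and 0 were lower (1.46%), with 7 at an unadjusted p under 0.05 (25.1% of all tested genes) and a median log2 fold change of -0.12. DESeq2 called 2 of them higher, where it called 1822 of 15787 genes higher. The higher one in edgeR was Kifap3, the subunit that joins KIF3 motors to cargo, at 252, 250, 236 and 204 CPM in the libraries labelled Tmem232-/- and 152, 141, 137 and 156 CPM in the others. Its groups were separate, with a log2 fold change of 0.68 (SE 0.08, edgeR adjusted p = 1.6e-04). Among those not called, the light chain Klc3, which links flagellar fibres to mitochondria in spermatids, had a log2 fold change of 1.09 (SE 0.33, edgeR adjusted p = 0.057). Klc3 was low, at 1.20 to 3.81 CPM in the libraries labelled Tmem232-/- and 1.08 to 1.62 CPM in the others, and these values overlapped. The scaffold Dlg4 was at -0.27 (SE 0.14, edgeR adjusted p = 0.268) and the motor subunit Kif3c at -0.24 (SE 0.07, edgeR adjusted p = 0.0513).

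The partners of KIF17 in spermatids came to 5 tested genes, of which 2 were higher in edgeR (10.3% of all tested genes) and 3 in DESeq2 (1822 of 15787 genes). Fhl5, the coactivator that KIF17 carries, was at 68.2, 67.5, 58.8 and 56.3 CPM in the libraries labelled Tmem232-/- and 15.1, 12.0, 15.3 and 16.7 CPM in the others. It was well separated, with a log2 fold change of 2.08 (SE 0.11, edgeR adjusted p = 1.3e-05). The flagellar tektin Tekt4 was higher by 0.40 on the log2 scale (SE 0.08, edgeR adjusted p = 0.009). Crem, the transcription factor of round spermatids, had a log2 fold change of 0.28 (SE 0.09, edgeR adjusted p = 0.0716), and Tsn and Piwil1, which take part in RNA handling in germ cells, had -0.14 (SE 0.07, edgeR adjusted p = 0.198) and -0.05 (SE 0.09, edgeR adjusted p = 0.757).

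Of 18 spindle partners, 1 was lower (1.46% of all tested genes) and 0 were higher (10.3%), with 4 at an unadjusted p under 0.05 (25.1% of all tested genes) and a median log2 fold change of -0.05. It was Cdca8, a subunit of the chromosomal passenger complex, at 105 to 126 CPM in the libraries labelled Tmem232-/- and 128 to 152 CPM in the others (log2 fold change -0.27, SE 0.08, edgeR adjusted p = 0.0449, and 0.174 at most when 1 library was left out). The kinases Aurkb and Aurka and the scaffold Incenp had log2 fold changes of -0.34 (SE 0.11), -0.16 (SE 0.07) and -0.16 (SE 0.07), and none passed (edgeR adjusted p = 0.0767, 0.174 and 0.171).

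Of 23 genes of dynein, the motor that walks to the minus end, and its activator dynactin, 2 were higher (10.3% of all tested genes) and 0 lower, with 3 at an unadjusted p under 0.05 (25.1% of all tested genes) and a median log2 fold change of 0.02. They were the dynein regulator Ndel1 (0.29, SE 0.06, edgeR adjusted p = 0.0097) and the light chain Dynll2 (0.24, SE 0.06, edgeR adjusted p = 0.0248, and 0.0771 at most with 1 library left out). The 3 others with the largest log2 fold changes were Dctn5 at -0.18 (SE 0.06), Dynlrb1 at -0.18 (SE 0.10) and Actr10 at 0.17 (SE 0.08), and none passed (edgeR adjusted p = 0.083, 0.307 and 0.206). All genes tested had a median of -0.05, which stands beside these lists.

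Markers of the cells that make up the testis also differed between the labels. In whole tissue, more cells of a type and more RNA per cell cannot be told apart. Of 11 round spermatid markers, 10 were higher (10.3% of all tested genes), all but Acr, with a median log2 fold change of 1.08. All 12 elongating spermatid markers were higher too, with a median of 2.79 and a range from 1.33 to 4.44. The highest was Prm2, at 67.9 to 196 CPM in the libraries labelled Tmem232-/- and only 2.66 to 12.5 CPM in the others. The summed round spermatid markers were at 842 to 1080 CPM in the libraries labelled Tmem232-/- and 419 to 606 CPM in the others, and the elongating ones at 1388 to 2314 and 346 to 701 CPM. Of 13 spermatocyte markers, 1 was lower and the median was -0.11, and of 11 spermatogonial markers, 4 were lower with a median of -0.35, beside 1.46% of all tested genes. With some library left out, the spermatocyte call, Dmc1, and 3 of the 4 spermatogonial ones, Stra8, Sohlh1 and Sall4, were lost (edgeR adjusted p up to 0.0683, 0.16, 0.111 and 0.101).

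Of 6 peritubular myoid cell markers, 2 were lower (1.46% of all tested genes), Acta2 and Myh11, and both calls were lost with some library left out (edgeR adjusted p up to 0.12 and 0.0549). Of 11 Sertoli, 9 Leydig, 7 macrophage and 6 endothelial cell markers, edgeR called 0, with 1, 5, 0 and 1 at an unadjusted p under 0.05 (25.1% of all tested genes). DESeq2 called 2 of the Leydig markers higher and limma-voom 1, where they called 1822 and 1622 of 15787 genes higher. Of 4 tested multiciliated cell markers 2, Foxj1 and Deup1, were higher (10.3% of all tested genes), and the markers' sum was at 564 to 669 CPM against 417 to 519 CPM. Tekt1, the largest part of that sum at a mean of 382 CPM against 335 CPM, did not pass (log2 fold change 0.19, SE 0.08, edgeR adjusted p = 0.182). Of 4 tested neuronal markers 1 was higher (10.3% of all tested genes), and limma-voom also called 1 lower (232 of 15787 genes), with sums of 101 to 118 CPM against 89.8 to 107 CPM. Mcidas, a defining factor of multiciliated cells, had too few counts to be tested, as had the neuronal markers Snap25, Nefl and Stmn2.

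The 3 members with the largest rises among those that passed the test were set beside the spermatid markers of the same library, a comparison chosen after the values were seen and given as a description, with no test. Kif2b over the summed round spermatid markers was 0.348, 0.372, 0.353 and 0.349 in the libraries labelled Tmem232-/-. It was 0.226, 0.234, 0.249 and 0.243 in those labelled Tmem232+/+. These ratios did not overlap, and their log2 difference was 0.58 in place of 1.43. Kif17 over the same sum was at 0.114 to 0.144 and at 0.0973 to 0.117, and these values overlapped. Kif27 over that sum was lower in the libraries labelled Tmem232-/-, at 0.245 to 0.285 against 0.293 to 0.423.

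Relative to the summed elongating spermatid markers, all 3 were lower in the libraries labelled Tmem232-/-. Kif2b was at 0.141 to 0.214 against 0.215 to 0.284, Kif17 at 0.0467 to 0.0762 against 0.0841 to 0.142 and Kif27 at 0.0988 to 0.173 against 0.253 to 0.513. The direction of these 3 members therefore depended on the reference chosen, and the part of the spermatid markers in their differences was not tested.

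**Figure D5:**
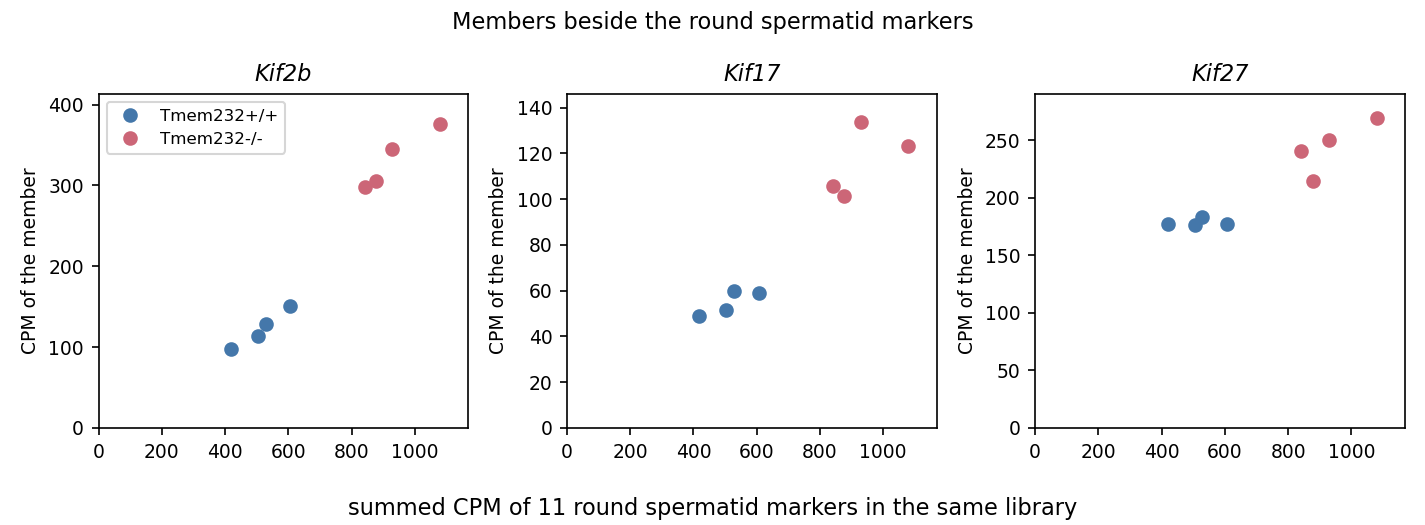
CPM of Kif2b, Kif17 and Kif27 against the summed CPM of 11 round spermatid markers in the same library, with axes from 0 and 1 point per library. The libraries labelled Tmem232-/- lie at 842 to 1080 CPM of markers and above the others in each panel.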

How the data were processed

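RNA from the testes of 8 mice, 4 of each genotype, was extracted with TRIzol, made into libraries with a TruSeq RNA kit and sequenced in pairs of reads. After removal of low-quality reads, the authors mapped the rest to GRCm38.p6 with HISAT and Bowtie2, counted them with StringTie and featureCounts and compared genotypes with DESeq2. The versions and the strand setting are not given in the sources used here. The authors deposited estimated counts without normalization, of which 10.7% to 11.2% in each library are fractional. They also deposited FPKM values, which are scaled to transcript length and library total, as the authors' counts showed when checked on 498 genes with 1 transcript. The log2 fold changes, p-values and q-values deposited by the authors are their own comparison, and neither these nor the authors' group means were used.

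Groups and replicate numbers came from the labels. Counts were rounded and compared in R 4.3.3 with edgeR 4.0.16 (default filter on low counts, TMM scaling, quasi-likelihood test without covariates), with Benjamini-Hochberg adjustment over 15787 genes, after the code was tested on simulated data. Single values were compared by exact permutation over the 70 ways to split the libraries, which can give no two-sided p under 0.029. Alternatives used DESeq2 1.42.0, limma 3.58.1, other scalings and filters, log2(FPKM + 1) and log2(FPKM + 0.1), a replicate block and leaving out each library. Values per library are given for members with an adjusted p under 0.05, 9 members picked for their roles, the 5 with the highest mean FPKM and those without overlap. In partner lists, called genes and up to 3 others with the largest change are named. Other members named for contrast were chosen after their values were seen. The members, role groups and lists were chosen with earlier results of these data known. Promoter windows are from RefSeq, and gene models from GENCODE vM21.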

Additional observations from a re-analysis of the deposited data

How the results depend on the processing

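For the 15 members with values per library and Tmem232, 236 of 271 log2 fold changes under the alternatives kept their direction and their side of the threshold. The median over all members lay between -0.05 and 0.06 and that of the cilium and flagellum motors between -0.02 and 0.09, so neither had a settled sign. Replicate numbers do not pair the mice, since libraries with the same number had correlations of -0.138, 0.156, -0.464 and -0.156 in their deviations, and the highest of all pairs, 0.503, was between different numbers. With the replicate block, 3 members were higher and 0 lower, where 6 and 1 were without it. Over all 15787 tested genes, 1633 were higher and 230 lower without the block, and 1317 and 28 with it. Kif2c (edgeR adjusted p = 0.0613), Kif21b (0.0517), Kif1bp (0.0897), Kif19a (0.0854) and Tmem232 (0.114) were then not called. Without a filter on low counts, 0 members were lower, beside 71 of 19874 genes, where 230 of 15787 genes were lower with the filter. On log2(FPKM + 1), 1 member was higher at 2-fold or more, where 2 members and 5.48% of all tested genes were in the main edgeR test. With 1 library left out, 5 to 6 members were higher and 0 to 1 lower at an adjusted p under 0.05. Over all genes, 1356 to 1865 were higher and 37 to 356 lower in those fits, of 15898 to 15941 tested. On log2(FPKM + 0.1), Kif21b had an adjusted p of 0.0504 in limma.

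Leaving out 1 library gave both signs for 9 of the 31 members that did not pass. Among those with values per library, Kif6 lay between -0.094 and 0.030, Kif5b between -0.071 and 0.012 and Kif20a between -0.126 and 0.133. Without a filter on low counts Kif5b was at 0.007 and Kif20a at 0.033, and Kif20a was at 0.013 both in DESeq2 and in edgeR with its size factors. Relative to the summed elongating spermatid markers, added after seeing the data, Kif2b was at -0.53, Kif17 at -0.89 and Kif27 at -1.52, and relative to the round spermatid markers Kif27 was at -0.42. The cause of these turns was not tested. With 4 mice per label, differences larger than the standard errors given could also fail the test, as Kif26a did at -0.34 (SE 0.12, edgeR adjusted p = 0.102). Kif26b, Kif28 and Kif12 rest on few counts, at most 25 in a library.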
